A study of Mus musculus with 24 samples.

Results

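The comparison described here is the pull-down of GFP alone against its own input in the mouse line GT1-7, an immortalised line of hypothalamic neurons that secrete gonadotropin-releasing hormone. It comprised 6 of the 24 libraries of the series, the 3 labelled GFP IP and the 3 labelled GFP input, and took in every gene row of their count table. Cells were given 6 µg of a GFP plasmid for 24 h and lysed, 5% of the lysate was kept as input, and the rest was left overnight on GFP-trap beads, which were washed 4 times before RNA was extracted. The same steps with a GFP-Mkrn3 plasmid gave 3 GFP-Mkrn3 IP and 3 GFP-Mkrn3 input libraries, used below to show where the GFP pull-down differed. Nothing in the labels says that libraries of 1 group were separate cultures, and p-values measure the spread between these libraries, which may be technical.

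RNA immunoprecipitation recovers the RNA that stays with a tagged protein through lysis and washing. GFP is not an RNA-binding protein, and its pull-down serves as the control that shows which RNA remains on the beads without a bait of interest. IP and input libraries each report shares of their own RNA, so a gene described as higher took a larger share of the IP library than of the input library. The amount of RNA recovered was not analysed here.

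The 3 GFP IP libraries held 8420755, 8713600 and 6254703 counts, and the 3 GFP input libraries 6947556, 8500401 and 9022961 counts. Within a group, log2 CPM (library-scaled counts) of any pair of libraries correlated across genes at 0.985 to 0.988 for GFP IP and at 0.974 to 0.985 for GFP input. Of 57010 gene rows, 23046 had a count in a GFP library and 13052 passed the filter on low counts and were tested with edgeR's quasi-likelihood test at an adjusted p of 0.05. All of these libraries are from 1 line, and the summed CPM of 13 GnRH neuron genes was 2018 to 2425 in GFP IP and 2228 to 2428 in GFP input, with Dlx2 and Gad2 at 0 in all 6 libraries.

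The RNA on GFP beads was not a scaled copy of the lysate. Of the 13052 tested genes, 6565 (50.3%) passed the test, 3274 (25.1%) higher and 3291 (25.2%) lower in GFP IP. Scaled by library size alone, which shifted the median log2 fold change of all genes to -0.11 against -0.0045 with TMM, the same test called 2554 higher and 3952 lower. Changes of at least 2-fold were called higher in 714 genes (5.47%) and lower in 1273 genes (9.75%). Rows annotated TEC, described below and kept by the filter mostly through the IP libraries, made up 365 of the 714 and 5 of the 1273. Of nuclear protein-coding genes 196 were at least 2-fold higher and 1069 lower. Among rows with a mean of at least 10 counts in the GFP-Mkrn3 inputs, 37 TEC rows were at least 2-fold higher and 4 lower. There 150 nuclear protein-coding genes were at least 2-fold higher and 1051 lower. The middle 90% of genes lay between log2 fold changes of -1.41 and 1.19.

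Counts of small RNAs of RNA polymerase III were among those most reduced in GFP IP, and ribosomal protein mRNAs fell in most tested genes. The starts of a few of these RNAs are therefore printed. Bc1 is a small cytoplasmic RNA of rodent neurons made by RNA polymerase III, whose 5′ end derives from a transfer RNA, and ribosomal protein mRNAs are known for a pyrimidine run at their first base, the terminal oligopyrimidine tract through which their translation is controlled. The first 50 bases of Bc1 are given from RefSeq (GRCm38.p6), followed by 10 bases before and 20 bases from the annotated start of 4 ribosomal protein genes, chosen after their values were seen as those with a run at the start and the lowest log2 fold changes. A run of this form stood at the start of 15 of 61 matched ribosomal protein genes, so the printed starts do not stand for the group. Capitals mark the run, a C at the start followed by at least 4 bases that are C or T, read on the strand of the gene.
Bc1, chr7:144914470-144914519, plus strand: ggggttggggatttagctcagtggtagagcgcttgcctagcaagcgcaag
Rps21, chr2:180257369-180257398, plus strand: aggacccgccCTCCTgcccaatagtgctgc
Rpl38, chr11:114668570-114668599, plus strand: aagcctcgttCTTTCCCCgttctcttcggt
Rpl35, chr2:39005112-39005141, minus strand: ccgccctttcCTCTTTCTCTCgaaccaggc
Rplp2, chr7:141447641-141447670, plus strand: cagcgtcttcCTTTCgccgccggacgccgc

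By RNA class, the share of counts did not overlap between GFP IP and GFP input in 12 of 15 classes (80%), and no exact permutation test of 3 against 3 libraries can give a two-sided p below 0.1. Nuclear protein-coding genes took 97.6% ± 0.280 of counts in GFP IP and 96.3% ± 0.200 in GFP input (SD, n = 3 each). Annotated rows of the type misc_RNA, which hold 7SK, Y and signal recognition particle RNAs, took 0.126% ± 0.00569 in GFP IP and 1.08% ± 0.0658 in GFP input. Mitochondrially encoded mRNAs took 0.151% ± 0.0362 in GFP IP and 0.605% ± 0.0272 in GFP input, and both mitochondrial ribosomal RNAs together 0.0139% ± 0.00725 and 0.287% ± 0.0492. Long non-coding RNAs took 1.40% ± 0.156 in GFP IP and 1.12% ± 0.0784 in GFP input. Gene by gene the class did not rise. Of 777 tested lncRNA rows 128 were higher and 127 lower (median log2 fold change -0.15), against 25.1% and 25.2% of all genes. Of the 565 with a mean of at least 10 counts in the GFP-Mkrn3 inputs, 69 were higher and 115 lower (median -0.26). Rows annotated TEC, loci with transcript evidence that still await experimental checks, took 0.195%, 0.179% and 0.224% in the 3 GFP IP libraries against 0.0703%, 0.0666% and 0.0642% in the 3 GFP inputs, a mean ratio of 2.98.

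**Figure D1:**
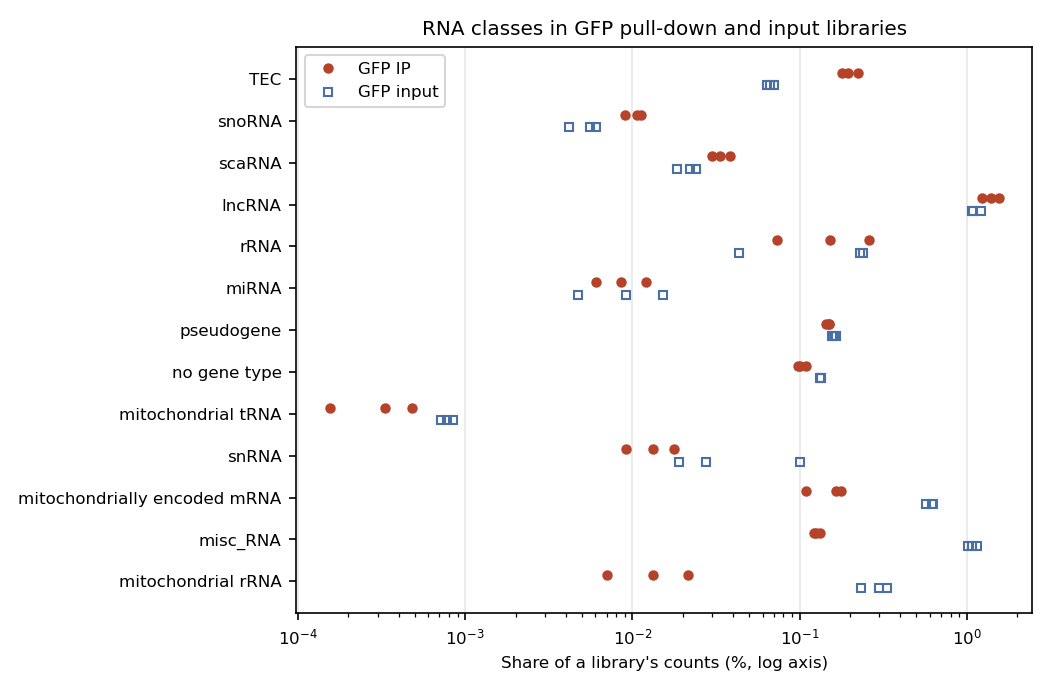
Share of each library's counts (percent, log axis) for 13 RNA classes, with a filled circle for each GFP IP library and an open square for each GFP input library. TEC rows lie to the right in GFP IP, and misc_RNA and mitochondrial classes lie to the left.

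Small nuclear and nucleolar RNAs divided. Small nucleolar RNAs, which guide modification of ribosomal RNA, took 0.0103% ± 0.00112 in GFP IP and 0.00527% ± 0.000957 in GFP input, and small Cajal body RNAs, their counterparts for spliceosomal RNA, took 0.0339% ± 0.00418 and 0.0215% ± 0.00273 (SD, n = 3 each). Rows of the type snRNA took 0.0134% ± 0.00436 in GFP IP and 0.0488% ± 0.0446 in GFP input, where input 2 stood at 0.1001% against 0.0274% and 0.0190% in the others. Without input 2 the snRNA difference was -0.00976 percentage points, against -0.0354 with it. The shares of rRNA and miRNA rows overlapped between the groups. The labels name CEL-seq2, a 3′ end method, for these libraries. How well it counts small RNAs, here and below, and replication-dependent histone mRNAs was not tested.

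The small RNAs of RNA polymerase III had the lowest median of the 34 lists with at least 5 tested members. All 5 tested members of this list fell, with a median log2 fold change of -3.91, while 25.2% of all genes were called lower. 7SK (Rn7sk, chr9:78175302-78175633), the scaffold of the complex that holds back transcription elongation, had 1292, 1321 and 1389 CPM in GFP IP against 10671, 9959 and 11403 CPM in GFP input. The groups were far apart, and the log2 fold change was -3.00 ± 0.143 (SE, edgeR adjusted p = 2.36e-11). The Y RNA Rny3, a partner of the Ro60 protein, had 3.21, 1.35 and 1.02 CPM in GFP IP and 33.4, 27.7 and 25.5 CPM in GFP input, a log2 fold change of -3.91 ± 0.276 (edgeR adjusted p = 2.97e-09), or -4.57 without GFP IP replicate 1. Rny1, another Y RNA, had 1 count in each GFP IP library and 533 counts over the 3 inputs, a ratio of 0.00636 with a 95% counting interval of 0.00131 to 0.0187. Rn7s2, a 7SL RNA of the signal recognition particle, had no count in GFP IP and 73 in the inputs, at least 21.5-fold lower with a floor of 3 counts over the group. With Rn7s2 at that bound the median of the list is the same.

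Bc1 had 10.1, 12.1 and 9.67 CPM in GFP IP against 186, 48.9 and 39.7 CPM in GFP input. Input 1 stood apart, and every input library was above every IP library. Its log2 fold change was -3.08 ± 0.442 (edgeR adjusted p = 1.33e-05), and -2.06 without GFP input replicate 1. Of 10 tested rows of the type snRNA 7 fell, and 1 rose, Gm23258 at 2.67 ± 0.726, named after its value was seen. Among those that fell, Gm24265 had a log2 fold change of -3.84 ± 0.303, Gm24407 of -3.91 ± 0.430 and Gm22513 of -3.43 ± 0.476, the last at -4.24 without GFP IP replicate 3. These rows may share reads with near-identical copies, and the value of each is uncertain. Among the Cajal body RNAs, Scarna2 had 124, 116 and 148 CPM in GFP IP and 65.7, 86.9 and 40.4 CPM in GFP input, a log2 fold change of 1.00 ± 0.200 (edgeR adjusted p = 0.00039).

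RNA made inside mitochondria was lower in GFP IP. All 7 tested mitochondrially encoded mRNAs of 13 fell, with a median log2 fold change of -2.18, and so did both ribosomal RNAs. The large ribosomal RNA mt-Rnr2 had 67.2, 122 and 201 CPM in GFP IP and 2976, 2672 and 2211 CPM in GFP input, a log2 fold change of -4.34 ± 0.308 (edgeR adjusted p = 3.02e-09), and mt-Rnr1 fell by 3.63 on the log2 scale. Cytochrome b mRNA (mt-Cytb) had 78.7, 162 and 138 CPM in GFP IP and 750, 706 and 765 CPM in GFP input, with a log2 fold change of -2.56 ± 0.198. The mRNA of complex I subunit 6, mt-Nd6, changed least among the named members at -1.41 ± 0.246, with 420, 549 and 615 CPM in GFP IP and 1302, 1183 and 1735 CPM in GFP input. In each of these RNAs GFP IP 1 was the lowest library, and no IP library reached an input library.

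Long RNAs that stay in the nucleus went the other way. Of 11 tested members of this list, 8 were higher and 0 lower in GFP IP, where 25.1% of all genes were called higher, with a median log2 fold change of 1.22, or 0.66 with no filter on low counts. Xist (chrX:103460373-103483233), which coats the inactive X chromosome, had 387, 370 and 486 CPM in GFP IP and 68.7, 54.0 and 47.9 CPM in GFP input, with a log2 fold change of 2.87 ± 0.174 (edgeR adjusted p = 4.55e-10). Kcnq1ot1 (chr7:143213111-143296547), the antisense RNA that silences an imprinted cluster, had 138, 122 and 156 CPM in GFP IP against 17.2, 10.98 and 12.8 CPM in GFP input, a log2 fold change of 3.36 ± 0.177 (edgeR adjusted p = 8.26e-11). Xist overlaps Tsix and Kcnq1ot1 overlaps Kcnq1, and no source used here gives the strand setting of the counting, so reads of such pairs cannot be told apart.

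Neat1, the scaffold of paraspeckles, had 733, 570 and 724 CPM in GFP IP and 219, 190 and 200 CPM in GFP input, a log2 fold change of 1.73 ± 0.144 (edgeR adjusted p = 1.81e-08). Ftx, a neighbour of Xist in the X-inactivation centre, rose by 1.35 ± 0.180. Malat1, a speckle RNA, had 8897, 7136 and 9658 CPM in GFP IP and 6491, 5337 and 5384 CPM in GFP input, with a smaller log2 fold change of 0.58 ± 0.174 (edgeR adjusted p = 0.0098). Without GFP IP replicate 3 that of Malat1 was 0.48 and missed the threshold (edgeR adjusted p = 0.0525). Meg3, Rmrp and Rpph1 had no count in the GFP libraries, which does not show that these RNAs were absent from the cells.

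The 12 called genes with the highest log2 fold changes and a mean of at least 20 counts over the 6 libraries were all TEC or lncRNA rows. Gm37524 had 28.4, 22.9 and 25.6 CPM in GFP IP and 1.72, 0.925 and 0.772 CPM in GFP input, with a log2 fold change of 4.52 ± 0.410. Gm38381 had 28.3, 21.2 and 20.02 CPM in GFP IP and 0.718, 1.39 and 0.882 CPM in GFP input, with a log2 fold change of 4.503 ± 0.335 (edgeR adjusted p = 5.14e-09). The filter keeps TEC rows mostly through the IP libraries, so the 370 higher and 8 lower among 487 tested TEC rows (of 3235) are no measure of the class. Of the 96 TEC rows with a mean of at least 10 counts in the GFP-Mkrn3 inputs, libraries that take no part in the comparison, 42 were higher and 7 lower, with a median log2 fold change of 0.64.

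**Figure D2:**
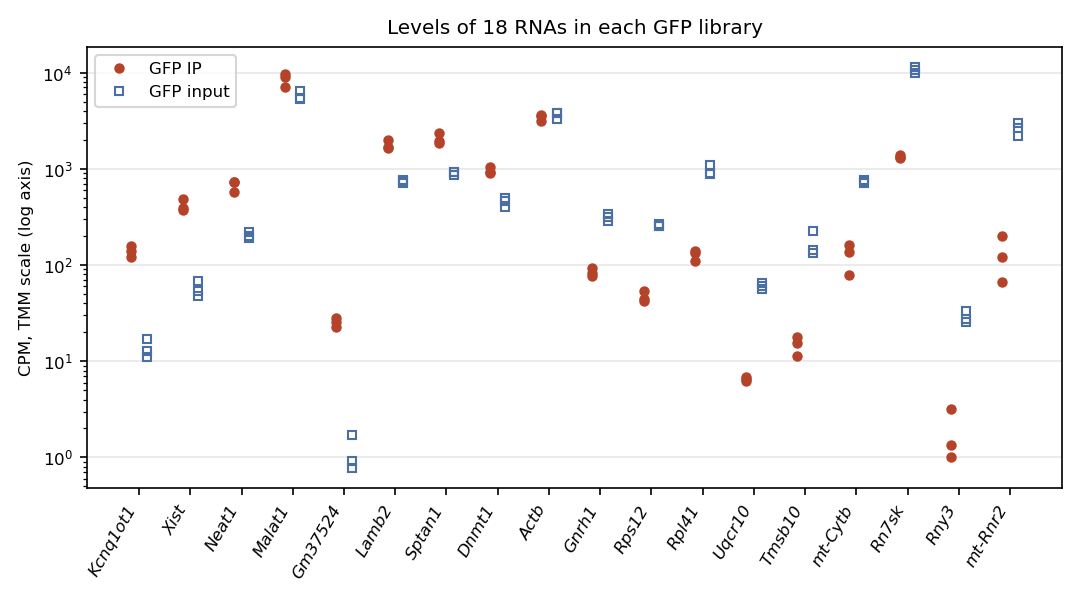
CPM on the TMM scale (log axis) of 18 RNAs, with a filled circle for each GFP IP library on the left of each pair and an open square for each GFP input library on the right. Kcnq1ot1, Xist, Neat1, Gm37524, Lamb2, Sptan1 and Dnmt1 were higher in every GFP IP library, Actb overlapped between the groups, and Gnrh1, Rps12, Rpl41, Uqcr10, Tmsb10, mt-Cytb, Rn7sk, Rny3 and mt-Rnr2 were lower.

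Among lists of nuclear-encoded mRNAs, those of ribosomal proteins and of respiratory chain subunits had the lowest medians. The counts for each list from here on stand against 25.1% of all genes called higher and 25.2% called lower. Of 34 tested small-subunit ribosomal protein genes 33 fell (median log2 fold change -1.59), and of 48 large-subunit genes 43 fell (median -1.20), with 0 higher in either list. The small-subunit genes together took 0.287% ± 0.00775 of counts in GFP IP and 0.809% ± 0.0423 in GFP input (SD, n = 3 each). Rpl41 had 110, 139 and 134 CPM in GFP IP against 872, 898 and 1091 CPM in GFP input, a log2 fold change of -2.90 ± 0.156 (edgeR adjusted p = 1.01e-10). Rps12 had 53.1, 44.4 and 42.6 CPM in GFP IP and 268, 252 and 257 CPM in GFP input, a log2 fold change of -2.47 ± 0.142 (edgeR adjusted p = 2.44e-10). Ribosomal protein genes have many processed copies in the genome, and the assignment of shared reads is uncertain.

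The 4 genes whose starts are printed had log2 fold changes of -2.48 ± 0.380 for Rps21, -2.03 ± 0.170 for Rpl38, -1.95 ± 0.179 for Rpl35 and -1.72 ± 0.150 for Rplp2. A start of that form stood in 823 of 32851 RefSeq promoter windows (2.51%) and in 24.6% of the matched ribosomal protein genes. The median log2 fold change was -1.40 in the 15 ribosomal protein genes with the run and -1.26 in the other 46. Among all other protein-coding genes it was -0.05 in the 249 with such a start and -0.01 in the 8765 without. Ribosomal protein genes were lower in GFP IP in both groups. The run was sought only at the exact annotated start, and the other 46 may hold mRNAs that carry it at another start. The split therefore does not separate mRNAs with the run from mRNAs without it.

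Nuclear-encoded subunits of the respiratory chain fell in 72 of 80 tested genes and rose in 3, with a median log2 fold change of -1.52. Uqcr10, a small subunit of complex III, had 6.17, 6.50 and 6.79 CPM in GFP IP and 56.5, 64.5 and 61.1 CPM in GFP input, with a log2 fold change of -3.23 ± 0.139 (edgeR adjusted p = 1.09e-11). Atp5md, a subunit of the ATP synthase, had 3.47, 7.36 and 7.46 CPM in GFP IP and 63.7, 71.9 and 75.004 CPM in GFP input, with a log2 fold change of -3.54 ± 0.207, and Cox7a2 of complex IV one of -3.02 ± 0.166. Mitochondrial ribosomal protein genes fell in 62 of 77 and rose in 1, with a median of -0.99, and Mrpl34 stood at -2.77 ± 0.267. These lists are of nuclear genes translated in the cytosol, apart from the mRNAs made inside mitochondria described above.

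Thymosin mRNAs, which encode short actin-binding peptides, were also lower in GFP IP. Tmsb10 had 11.3, 15.3 and 17.8 CPM in GFP IP against 225, 144 and 134 CPM in GFP input, a log2 fold change of -3.51 ± 0.185 (edgeR adjusted p = 8.26e-11), and Tmsb4x stood at -2.41 ± 0.220. Replication-dependent histone genes fell in 32 of 53 and rose in 0, with a median of -1.10, and variant histone genes fell in 7 of 9, with H3f3a at -1.99 ± 0.127 and H2az1 at -1.39 ± 0.0999. H4c6 had 83.2, 79.0 and 73.5 CPM in GFP IP and 240, 271 and 288 CPM in GFP input, a log2 fold change of -1.76 ± 0.118 (edgeR adjusted p = 1.54e-09), though histone copies share sequence and their split is uncertain. Host transcripts of small nucleolar RNAs fell in 9 of 16 and rose in 1, and Snhg1 stood at -1.56 ± 0.200. Proteasome subunit genes fell in 24 of 37 and rose in 3 (median -0.60; Psmb6 -1.35 ± 0.101), and genes of tubulin, actin and actin-binding proteins fell in 10 of 18 and rose in 1 (median -0.73; Cfl1, cofilin, -1.20 ± 0.106). F12, coagulation factor XII, was the protein-coding gene with the lowest log2 fold change among those named, -4.38 ± 0.202, with 2.95, 1.59 and 2.71 CPM in GFP IP and 54.5, 44.3 and 51.0 CPM in GFP input.

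Short genes as a whole were lower. The 11208 nuclear protein-coding genes with a RefSeq span, the genomic length from start to end with introns, were divided into 10 bins. In the shortest, with a median span of 3155.5 bp, the median log2 fold change was -0.73, and 61.1% of genes were called lower and 4.01% higher. In the longest, with a median span of 191124 bp, it was 0.27, with 8.92% lower and 44.2% higher. The medians rose at every step from bin 1 to bin 10, and the longest bin exceeded the shortest by 0.99 ± 0.0781 (SD from single libraries, n = 3 each). Within each of 5 abundance groups, taken from the GFP-Mkrn3 inputs, the shorter-span genes had the lower median, from -0.30 against 0.12 in the least abundant group to -0.11 against 0.30 in the most abundant group. Span includes introns, and how closely it follows mRNA length was not tested, since transcript lengths were not analysed.

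**Figure D3:**
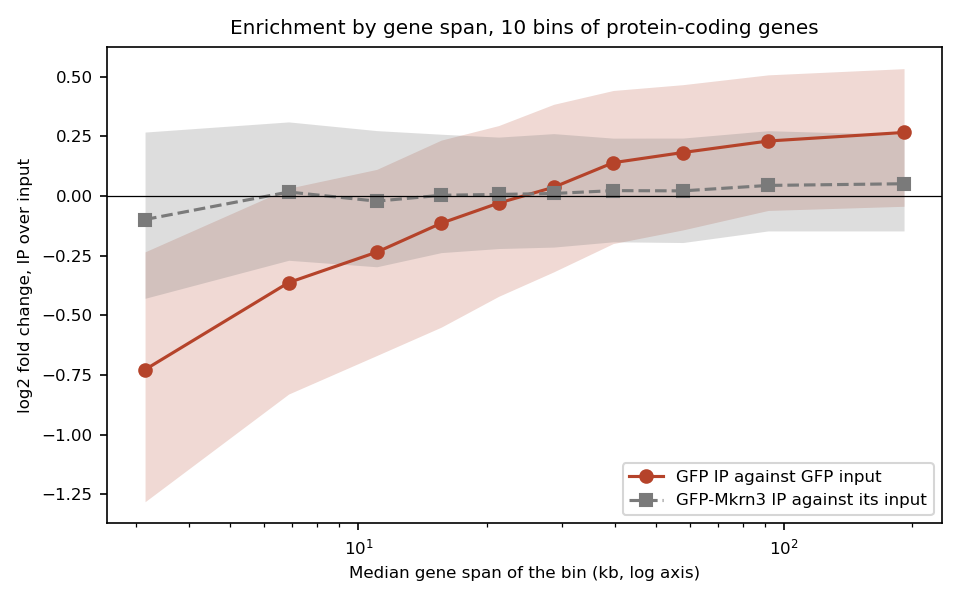
Median log2 fold change of IP over input (lines) with quartiles (bands) in 10 bins of nuclear protein-coding genes by RefSeq gene span in kb (log axis), for GFP (circles) and GFP-Mkrn3 (squares). The GFP medians run from -0.73 to 0.27, and the GFP-Mkrn3 medians from -0.10 to 0.05.

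Within the shortest bin the functional lists stood below the rest. The 67 ribosomal protein genes there had a median log2 fold change of -1.47 with 65 lower, the 24 respiratory chain genes one of -2.00 with 24 lower, and the 24 mitochondrial ribosomal protein genes one of -1.25 with 23 lower. The other 1007 genes of that bin had a median of -0.64, with 573 (56.9%) lower.

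At the other end, mRNAs of very large proteins, most of them of the cytoskeleton and adhesion, were higher in GFP IP. Of 49 tested members 43 rose and 1 fell, with a median log2 fold change of 0.67. Sptan1, the alpha chain of spectrin, had 2350, 1964 and 1842 CPM in GFP IP and 934, 866 and 929 CPM in GFP input, with a log2 fold change of 1.17 ± 0.0978 (edgeR adjusted p = 1.97e-08). Ahnak, a giant scaffold protein, had 87.5, 75.3 and 79.7 CPM in GFP IP and 33.3, 37.0 and 33.5 CPM in GFP input, with a log2 fold change of 1.22 ± 0.139. The sole member that fell was Kmt2d, a histone methyltransferase, with 242, 224 and 203 CPM in GFP IP and 560, 604 and 503 CPM in GFP input, a log2 fold change of -1.32 ± 0.103 (edgeR adjusted p = 9.09e-09).

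Collagen and laminin genes rose in 17 of 30 and fell in 0, with a median log2 fold change of 0.70. Lamb2, a laminin chain of basement membranes, had 2003, 1679 and 1651 CPM in GFP IP and 711, 771 and 739 CPM in GFP input, a log2 fold change of 1.26 ± 0.110 (edgeR adjusted p = 3.25e-08), and Col6a1 stood at 1.05 ± 0.0874. Clustered protocadherin genes rose in 16 of 25 and fell in 0. Several entered the test through the IP libraries, and of the 10 with a mean of at least 10 counts in the GFP-Mkrn3 inputs 5 rose and 0 fell. Protocadherin genes of a cluster overlap and share exons, so their split is uncertain.

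Chromatin regulators rose in 33 of 57 and fell in 9, with a median of 0.37. Dnmt1, the maintenance DNA methyltransferase, had 1047, 904 and 916 CPM in GFP IP and 494, 402 and 467 CPM in GFP input, with a log2 fold change of 1.07 ± 0.0864 (edgeR adjusted p = 1.3e-08), while Setd1b, a histone methyltransferase, fell by 1.00 on the log2 scale. DEAD and DExH box RNA helicase genes rose in 31 of 50 and fell in 2 (median 0.39), with Ddx21, which acts in ribosome production, at 1.00 ± 0.0982. Aminoacyl-tRNA synthetase genes rose in 12 of 20 and fell in 1 (median 0.37). Lars, which charges leucine, had 396, 366 and 400 CPM in GFP IP and 184, 173 and 184 CPM in GFP input, with a log2 fold change of 1.10 ± 0.0986, and Eprs stood at 0.87 ± 0.0803. Splicing factor genes of the hnRNP and SR families rose in 20 of 48 and fell in 9 (median 0.20), and the spliceosome subunit Sf3b1 stood at 0.96 ± 0.0958. Nuclear pore genes rose in 15 of 26 and fell in 6, and mitosis genes rose in 18 of 40 and fell in 7.

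Several lists had called members in both directions. Translation factors rose in 13 and fell in 25 of 63 (median -0.22). Glycolytic enzymes rose in 6 and fell in 3 of 17: hexokinase 2 (Hk2) stood at 1.10 ± 0.0974 and Pfkp at 1.01 ± 0.127, and Gapdh at -0.70 ± 0.149. Heat shock chaperones rose in 7 and fell in 4 of 17, with Hsph1 at 1.05 ± 0.114 and Hsp90ab1 at 0.76 ± 0.0829. Genes of the endoplasmic reticulum translocon and its chaperones rose in 12 and fell in 20 of 45, the small subunits Sec61b at -2.06 ± 0.228 and Ssr4 at -1.79 ± 0.121 among those that fell. Zinc-finger genes of the Zfp family rose in 67 (21.2%) and fell in 34 (10.8%) of 316, both under the shares of all genes called (25.1% higher and 25.2% lower). Stress granule and P-body genes rose in 17 (37%) and fell in 10 (21.7%) of 46. Their medians, 0.10 each, were -0.0095 for the zinc-finger and -0.0045 for the stress granule genes with library size alone. Cholesterol synthesis genes rose in 4 (16%) and fell in 3 (12%) of 25, and immediate early genes rose in 1 and fell in 5 (19.2%) of 26, also under those shares.

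**Figure D4:**
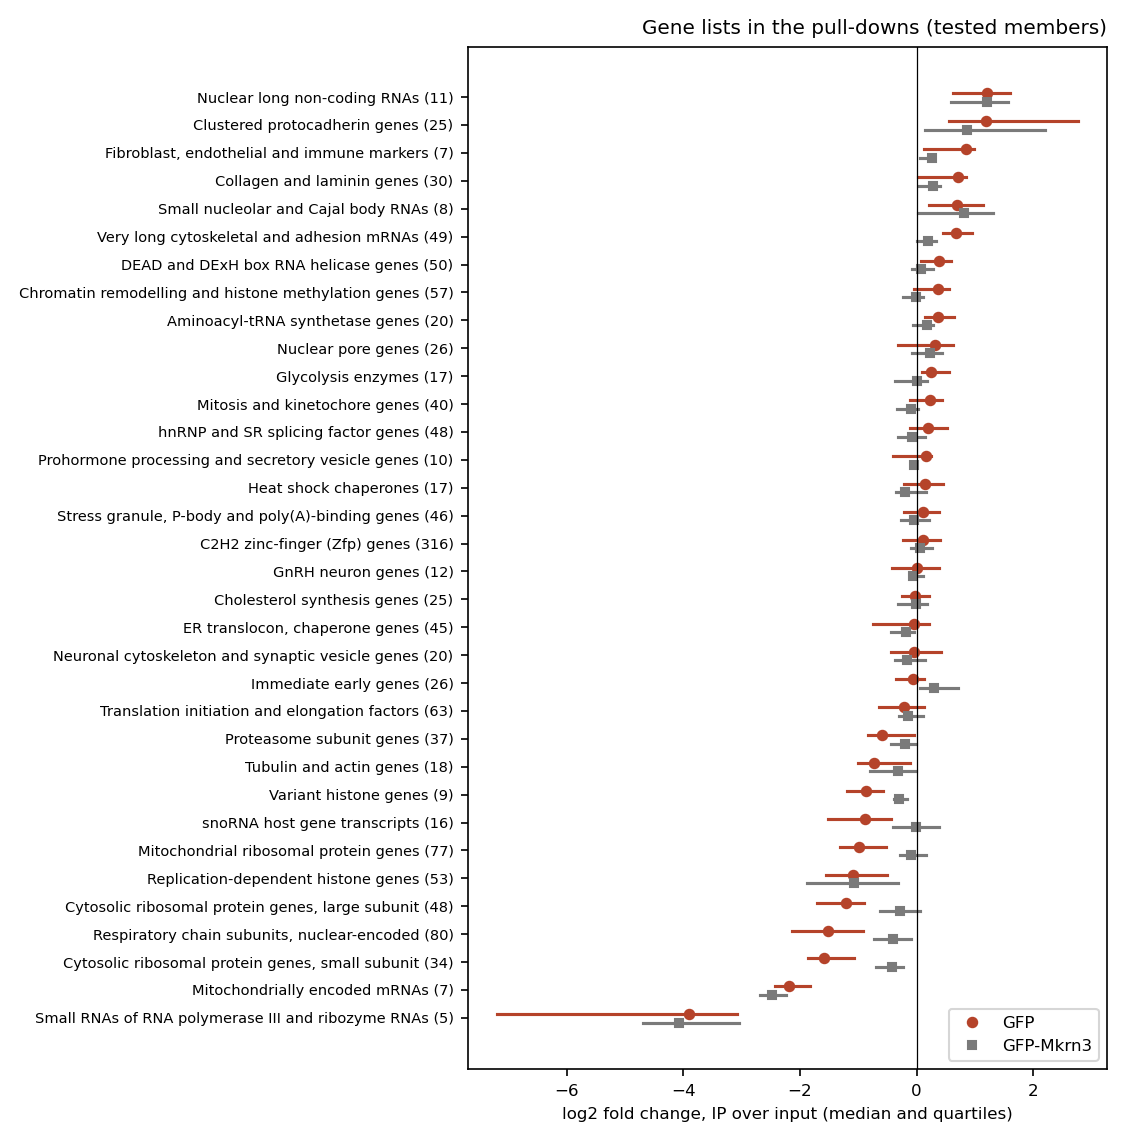
Median log2 fold change of IP over input (points) with quartiles (lines) for the 34 gene lists with at least 5 tested members, the number tested in parentheses, for GFP (circles, upper of each pair) and GFP-Mkrn3 (squares, lower). In the GFP pull-down 11 lists have a median below -0.5, from small RNAs of RNA polymerase III to proteasome subunits.

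The mRNA at the centre of the study, Gnrh1 (chr14:67745181-67749440), which encodes the precursor of gonadotropin-releasing hormone, was lower in GFP IP. It had 92.1, 83.1 and 76.2 CPM in GFP IP and 338, 284 and 317 CPM in GFP input, with no overlap, and a log2 fold change of -1.90 ± 0.0953 (edgeR adjusted p = 4.21e-11). With a span of 4260 bp Gnrh1 lies in the shortest span bin, where the median was -0.73 and 61.1% of genes were called lower. The lower quartile of that bin was -1.28, and Gnrh1 lay below it. The GnRH neuron list used here holds 21 gene rows and is not the set of 13 genes summed near the start. It rose in 3 (25%) and fell in 4 (33.3%) of 12 tested genes, near the 25.1% higher and 25.2% lower among all genes. The homeobox gene Dlx5 stood at -0.89 ± 0.122. Among genes of prohormone processing and secretory vesicles 3 rose and 3 fell of 10 (30% each), also near those shares, with the carboxypeptidase Cpd at 0.59 ± 0.0810 and the vesicle GTPase Rab3a at -1.18 ± 0.242. Of neuronal cytoskeleton and synaptic vesicle genes 7 rose (35%) and 3 fell (15%) of 20, with the adhesion molecule Ncam1 at 0.92 ± 0.0915 and the vesicle protein Vamp2 at -0.75 ± 0.116. Actb, often used as a reference mRNA, had 3581, 3565 and 3143 CPM in GFP IP and 3328, 3835 and 3768 CPM in GFP input, which overlap, with a log2 fold change of -0.09 ± 0.0861 that was not called.

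The makorins encode RING-finger proteins that bind RNA. Mkrn3 had 7.32, 7.36 and 5.60 CPM in GFP IP and 8.61, 6.01 and 3.97 CPM in GFP input, which overlap, with a log2 fold change of 0.18 ± 0.201 (edgeR adjusted p = 0.49). Mkrn2 had 43.2, 39.1 and 40.4 CPM in GFP IP and 56.1, 59.5 and 80.7 CPM in GFP input and fell by 0.68 ± 0.125 on the log2 scale. Mkrn1 had 73.3, 65.1 and 63.8 CPM in GFP IP and 55.1, 55.1 and 49.1 CPM in GFP input and a log2 fold change of 0.35 ± 0.127 (edgeR adjusted p = 0.0291). The call of Mkrn1 was lost without GFP IP replicate 1 (0.27, edgeR adjusted p = 0.135), without GFP input replicate 3 (0.29, edgeR adjusted p = 0.109) and with library size alone (0.24, edgeR adjusted p = 0.12). Pabpc1, the main poly(A)-binding protein, stood at -0.28 ± 0.0765 (edgeR adjusted p = 0.00507).

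Markers of other cell types were also read. The 16 fibroblast, endothelial and immune markers summed to 841 to 936 CPM in GFP IP and 505 to 550 CPM in GFP input, with Cd3e, Lum, Lyz2 and Ptprc at 0 in all 6 libraries, and 4 of 7 tested members rose and 0 fell. Kdr, a receptor for vascular growth factor, stood at 0.92 ± 0.0850, Pdgfra at 1.06 ± 0.0846 and Col1a1 at 0.85 ± 0.166. The 14 astrocyte and oligodendrocyte markers summed to 17.6 to 22.7 CPM in GFP IP and 16.1 to 18.7 CPM in GFP input, with 7 at 0. The 10 neuronal markers summed to 93.8 to 97.8 CPM in GFP IP and 101 to 113 CPM in GFP input, with Gap43, Nefl, Nefm and Snap25 at 0. GFP input was kept from the lysates that went on the beads, so these IP and input sums compare RNA from the same cells. For the level of a marker in such bulk RNA, fewer cells of a type and less RNA per cell cannot be told apart. The part of these markers in the results above was not tested.

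The GFP-Mkrn3 pull-down against its own input served as the comparison, with the difference of both enrichments tested in 1 fit. It called 3487 genes (26.7%), 1812 higher (13.9%) and 1675 lower (12.8%), with 554 at least 2-fold higher (4.24%) and 148 at least 2-fold lower (1.13%). Without GFP-Mkrn3 input replicate 2 the higher count was 1195. Across the 13052 genes the log2 fold changes correlated at Pearson's r of 0.71 and Spearman's rho of 0.49, as a description. Of the genes higher with GFP 36.5% were higher with GFP-Mkrn3, which is 66.0% of the genes higher there, and of those lower with GFP 33.9% were lower with GFP-Mkrn3, which is 66.6% of the genes lower there. Genes called higher with GFP had a median log2 fold change of 0.59 with GFP and 0.23 with GFP-Mkrn3, and genes called lower -0.82 and -0.25. As these genes were chosen on the GFP values, their GFP medians are a description.

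The enrichment differed between GFP and GFP-Mkrn3 in 3178 genes (24.3%), with the GFP value higher in 1454 (11.1%) and lower in 1724 (13.2%). By library size alone the split was 603 higher and 2845 lower. The GFP value was at least 2-fold higher in 70 genes (0.536%) and at least 2-fold lower in 814 genes (6.24%). Ribosomal protein genes of the large subunit were lower with GFP in 37 of 48 and of the small subunit in 26 of 34, with none higher in either list, and their medians with GFP-Mkrn3 were -0.29 and -0.42. Respiratory chain genes were lower with GFP in 53 of 80 and higher in 2, mitochondrial ribosomal protein genes lower in 44 of 77 with 0 higher, and very large cytoskeletal and adhesion mRNAs higher in 35 of 49 with 0 lower. Gnrh1 differed by -1.29 ± 0.130 (edgeR adjusted p = 5.14e-06), with a log2 fold change of -1.90 with GFP and -0.61 ± 0.0901 with GFP-Mkrn3. In the shortest span bin, which holds Gnrh1, the median difference was -0.64 and the lower quartile -1.18. There 42.5% of genes had a called lower value with GFP.

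Other RNAs were shared or reversed this order. Nuclear long non-coding RNAs had medians of 1.22 with GFP and 1.21 with GFP-Mkrn3, and the difference was called in 1 of 11. Mitochondrially encoded mRNAs had medians of -2.18 with GFP and -2.48 with GFP-Mkrn3. The large mitochondrial ribosomal RNA mt-Rnr2 was less depleted with GFP, at -4.34, than with GFP-Mkrn3, at -6.48 ± 0.341, a difference of 2.14 ± 0.393 (edgeR adjusted p = 0.000861). 7SK (Rn7sk) differed by 1.08 ± 0.188 (edgeR adjusted p = 0.000576). It was the 1 called difference among the 5 tested small RNAs of RNA polymerase III, whose median difference was -1.58. Replication-dependent histone genes had medians of -1.10 with GFP and -1.07 with GFP-Mkrn3, yet the GFP value was higher in 15 of 53 and lower in 0, with H4c6 at -1.76 with GFP and -3.10 ± 0.125 with GFP-Mkrn3. Rps29 had the largest difference among genes with a mean of at least 20 counts, -3.48 ± 0.562 (edgeR adjusted p = 0.000356): it fell by 2.36 with GFP and rose by 1.12 ± 0.348 with GFP-Mkrn3. Rps29 had 31.4, 61.0 and 16.9 CPM in GFP-Mkrn3 IP and 12.8, 13.6 and 24.4 CPM in GFP-Mkrn3 input, which overlap. Without GFP-Mkrn3 IP replicate 2 that difference of Rps29 was -2.87.

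The bins by gene span also differed. The longest bin exceeded the shortest by 0.99 in the median log2 fold change with GFP and by 0.15 with GFP-Mkrn3, and in the shortest bin 42.5% of genes had a called lower value with GFP. In the longest bin the difference was called higher with GFP in 24.98% of genes and lower in 2.94%. Mkrn3 itself had a log2 fold change of 0.18 with GFP and 1.37 ± 0.111 with GFP-Mkrn3, a difference of -1.20 ± 0.230 (edgeR adjusted p = 0.00116), and reads from the plasmid and from the gene cannot be told apart in the GFP-Mkrn3 libraries.

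**Figure D5:**
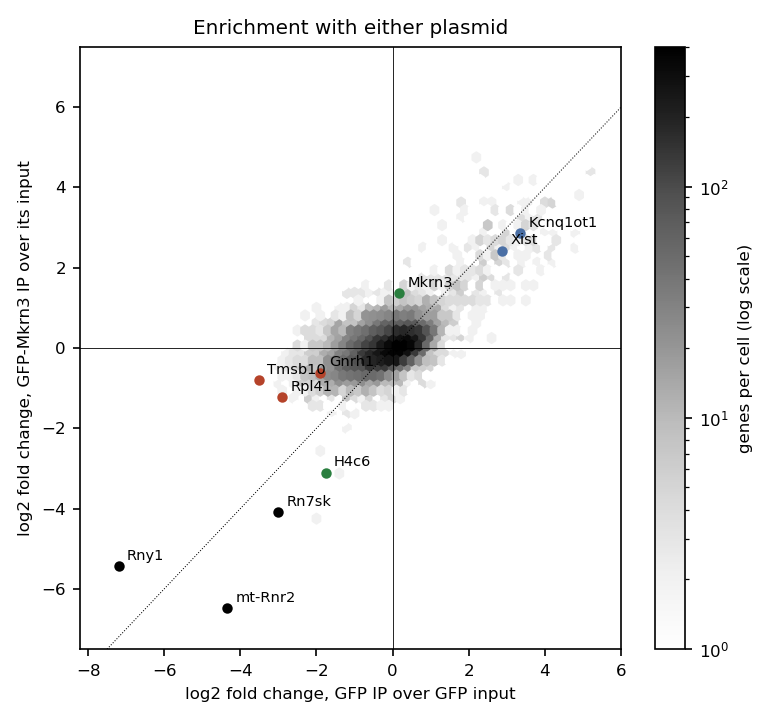
Log2 fold change of IP over input for 13052 genes with GFP (horizontal axis) and with GFP-Mkrn3 (vertical axis), shaded by genes per cell on a log scale, with 10 genes marked and the line of equal values dotted. Tmsb10, Rpl41 and Gnrh1 lie left of the dotted line, lower with GFP, and Rn7sk, mt-Rnr2 and H4c6 lie below it.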

How the data were processed

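Counts per gene were deposited by the authors as whole numbers in 57010 rows. Per the submitters' processing notes, reads were handled with cutadapt, STAR and HTSeq on mm10. No source used here gives their versions, the annotation, the strand setting or whether molecular identifiers were used. The labels name CEL-seq2, a 3′ end method, for these libraries. Gene names and types came from the authors' table, and 1606 rows have no name. All 12 RIP libraries entered 1 fit in edgeR 4.0.16 (R 4.3.3), scaled by TMM, filtered by filterByExpr and fitted as group means. The quasi-likelihood test was two-sided, p-values were Benjamini-Hochberg adjusted over 13052 genes, and a gene was called below 0.05. The biological coefficient of variation was 0.115. The contrasts were IP against input for GFP and for GFP-Mkrn3, and GFP enrichment minus GFP-Mkrn3 enrichment. CPM values are on the TMM scale, and ± after a log2 fold change is its standard error.

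Named genes are a preset list, the 12 highest and 12 lowest called log2 fold changes at a mean of at least 20 counts, 4 called members of each list with the largest change, and 6 genes in each direction for the difference. The members, the 39 gene lists and the rules were chosen with earlier results of these data known. Counts of list members called are read against the share of all genes called, and no list was tested. The result of 1 gene is not reported here. Of 173 genes the rule names, 64 overlap another RefSeq gene and 20 could not be placed. Positions and gene spans are from RefSeq GRCm38.p6; transcript length and GC content were not analysed here. Shares of counts were compared by exact permutation. Counting intervals (95%, exact) and the floor of 3 counts cover counting error only. No 2 libraries agreed within counting noise, and same-numbered IP and input libraries did not deviate together (correlations -0.146 to 0.0144), so they were not paired.

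On simulated data with 200 changed genes among 13052, the GFP contrast recovered 52.2%, 73.1% and 97.0% of 1.5-, 2- and 4-fold changes with 5 false calls, and the difference 29.9%, 58.2% and 87.9% with 8. Far fewer genes changed there than the 50.3% called in the GFP comparison, so these rates need not hold for it. Alternatives were DESeq2 1.42.0 size factors or test, library size alone, other filters, the compared groups alone, a replicate block and leaving out each library. Fits without mitochondrial and misc_RNA rows, and with a filter on the GFP-Mkrn3 inputs, were chosen after seeing the data. Python 3.11.15, pandas 2.3.3, scipy 1.17.1 and matplotlib 3.10.9 were used.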

Additional observations from a re-analysis of the deposited data

Results flagged for a closer look

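The enrichment over input differed between the GFP and the GFP-Mkrn3 pull-down in 3178 genes by the test of the difference itself (edgeR, adjusted over 13052 genes). The values that follow are that difference on the log2 scale, GFP minus GFP-Mkrn3, for the genes described here whose difference was called.

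Among ribosomal protein genes it was -3.48 for Rps29, -2.47 for Rps21, -2.21 for Rplp1, -2.07 for Rpl38, -1.99 for Rps12, -1.67 for Rpl41, -1.08 for Rpl35 and -1.03 for Rplp2. Among genes of respiration and mitochondrial translation it was -3.43 for Cox6a2, -3.13 for Coa6, -2.75 for Atp5md, -2.48 for Uqcr10, -2.45 for Mrpl34 and -2.04 for Cox7a2. Other genes with a lower value with GFP were Gm1673 (-3.14), Tmsb10 (-2.71), Dusp23 (-2.38), Snhg1 (-2.01), Sec61b (-1.80), Tmsb4x (-1.56), Ssr4 (-1.32), H3f3a (-1.26), Cfl1 (-1.22), H2az1 (-1.09), Psmb6 (-0.92) and Gapdh (-0.70).

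Neuronal and study genes with a called difference were Gnrh1 (-1.29), Mkrn3 (-1.20), Rab3a (-1.13), Dlx5 (-0.84), Vamp2 (-0.59), Pabpc1 (-0.41), Mkrn1 (0.51), Cpd (0.59) and Ncam1 (0.81). For Mkrn1 the call was lost in each fit without 1 of the GFP libraries, at 0.44 without GFP IP replicate 1 to 0.55 without GFP IP replicate 3, with library size alone (0.32), with no filter on low counts (0.49), and without GFP-Mkrn3 IP replicate 1 (0.49) or 2 (0.39) or GFP-Mkrn3 input replicate 2 (0.50) or 3 (0.44). For Rab3a it was lost without GFP IP replicate 1 (-0.95) and without GFP-Mkrn3 input replicate 1 (-0.97). For Gapdh it was lost without GFP IP replicate 3 (-0.63), GFP input replicate 2 (-0.60) or GFP-Mkrn3 input replicate 2 (-0.66). For Lamb2, given next, it was lost with library size alone (0.33) and without GFP IP replicate 1 (0.44).

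Other genes with a higher value with GFP were Lamb2 (0.53), Eprs (0.63), Sf3b1 (0.63), Kdr (0.65), Col6a1 (0.75), Pdgfra (0.77), Ddx21 (0.79), Lars (0.81), Dnmt1 (0.82), Hsph1 (0.86), Pfkp (0.90), Hsp90ab1 (0.95), Sptan1 (0.98), Hk2 (1.04), Ahnak (1.20) and Myh11 (1.76). RNAs reduced less with GFP than with GFP-Mkrn3 were mt-Rnr2 (2.14), mt-Nd6 (1.79), H4c6 (1.34), H4c16 (1.08) and Rn7sk (1.08), and the difference of Scarna2 was 1.11.

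The differences of 5 other genes also lost their call without single libraries. That of Plvap (-3.40) was -2.17 without GFP input replicate 2. That of Sh3bp1 (-3.17) was lost in 6 of the 12 fits that left out a library, and was -2.02 without GFP input replicate 2, and by the DESeq2 test. That of Gm42986 (1.96) was lost in 8 of those fits and was 1.24 without GFP-Mkrn3 input replicate 2. That of Eid3 (1.79) was also lost in 8 and was 1.42 without GFP input replicate 3. Both Gm42986 and Eid3 also lost it with library size alone and under the replicate block. That of Gm10461 (1.71) was 1.495 without GFP IP replicate 3.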

How the results depend on the processing

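Called in GFP IP against GFP input were 5804 to 6313 genes when each of its libraries was left out in turn (2873 to 3096 higher, 2888 to 3217 lower), 6606 by the DESeq2 test, and 6218 with a replicate block within plasmid (3093 higher, 3125 lower). Whether the replicate numbers pair IP and input libraries is not known. Under the block the difference was called in 2642 genes. With library size alone 2554 genes were called higher and 3952 lower, and the difference 603 higher and 2845 lower. Leaving out single libraries gave 1195 to 2371 genes higher with GFP-Mkrn3, and differences called in 2315 to 4359 genes. Without mitochondrially encoded rows in the total, the share of nuclear protein-coding genes was 0.646 percentage points higher in GFP IP, against 1.35 with them. The gain of the longest over the shortest span bin was 1.00 under a filter at 20 counts and 0.99 with library size alone. Lists with a median below -0.5 numbered 11 in every setting run, apart from 10 without mitochondrial and misc_RNA rows, and no called named gene reversed. Of all values for lists, 467 moved less than the spread between libraries and 42 more. For Plvap the call in GFP IP was lost without GFP input replicate 2 (-0.75, edgeR adjusted p = 0.444). Gene rows with under about 20 counts, many TEC rows among them, have wide intervals at this depth.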

Other observations

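The place of RNA in the cell was available from the fractionation libraries of the same series, which measured cytoplasmic and total RNA of unmodified (wt) GT1-7 cells. The 3466 genes with a mean of at least 10 counts there were divided into 5 groups by the log2 ratio of wt cytoplasm over wt total RNA, computed as CPM with a pseudocount of 5. In the group with the lowest cytoplasmic share, the median log2 fold change of GFP IP over GFP input was 0.23, with 44.7% of genes called higher and 17.9% lower. In the group with the highest cytoplasmic share it was -0.08, with 23.2% higher and 34.5% lower. The medians in the groups between were 0.08, 0.03 and -0.04, in the order of the cytoplasmic share. The same groups had median gene spans of 39901 bp at the low and 25843.5 bp at the high end, and GFP-Mkrn3 medians of -0.02 and -0.09. These values are a description across genes of 2 experiments, and the part of gene span in them was not tested.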
